A study of Rattus norvegicus with 6 samples.

Results

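The neuropeptide Y family of rat was examined here through 6 genes, chosen by symbol: the peptide genes Npy and Pyy and the receptor genes Npy1r, Npy2r, Npy4r and Npy5r, out of 38445 genes in the count tables. Amygdala RNA came from adult male Sprague Dawley rats that received an intraperitoneal injection of saline (control) or of ethanol at 1 g/kg, and tissue was taken 1 h later. Each group of 6 rats gave 3 libraries, because RNA of 2 rats was pooled for each. The dissection covered the central, medial and basolateral nuclei together, so levels are averages over several nuclei. Error terms describe the spread between such pooled libraries. In such bulk tissue fewer cells of a type and less RNA per cell cannot be told apart.

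Neuropeptide Y is a peptide transmitter of GABAergic interneurons in cortex and amygdala, and peptide YY is a related hormone made mainly in the gut. Their receptors couple to inhibitory G proteins of the Gi/o class, which lower cyclic AMP and open GIRK potassium channels. In the amygdala, neuropeptide Y is best known for reducing anxiety through the receptor encoded by Npy1r and for counteracting corticotropin-releasing factor. The study asked whether Npy1r links the transcription factor HIF3A to behavior after ethanol.

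Npy (NCBI gene 24604, chromosome 4 of Rnor_6.0 from 79557856 to 79565059, + strand) was listed at 0 counts in each of the 6 libraries, and its level and response to ethanol could not be read from these tables. A second gene model, NCBI gene 100912228, lies 8939 bases downstream on the same strand, from 79573999 to 79581212, and was also at 0 counts in all 6 libraries. Exons 2, 3 and 4 of Npy are 188, 81 and 202 nt long, and those of the second model are 188, 81 and 202 nt long. Their first exons are 96 and 107 nt. The corresponding exons start 16143 to 16154 bases apart, so both models have nearly the same layout. Identifier 100912228 was not matched in the newer gene table used for symbols. The counting program by default leaves out reads that align to more than 1 place. Whether reads of Npy were lost in this way was not tested, since no genome sequence of this build was used here. The sum of both models is 0 as well, so adding them recovers no value. Genes often expressed in Npy interneurons were counted in the same libraries: Sst, the somatostatin gene, averaged 151 ± 17.6 CPM in control libraries and 151 ± 15.1 CPM in ethanol libraries (SD, n = 3 each). CPM is the count scaled to library size (assigned reads, with TMM factors). The 0 for Npy is given as no measurement rather than as absence of its RNA.

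**Figure D1:**
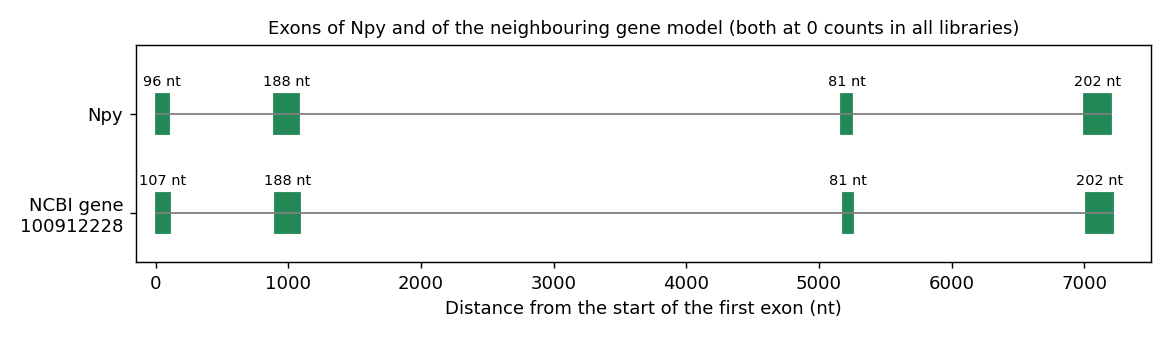
Exons (boxes, with lengths in nt) of Npy and of NCBI gene 100912228, drawn by distance from the start of the first exon in nt. Exons 2, 3 and 4 are 188, 81 and 202 nt in both models, and both models had 0 counts in all 6 libraries.

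The sequences before the start sites are shown because the study looked for hypoxia response elements, the DNA sites of HIF proteins, at Npy1r. The HIF core in its forms ACGTG (first form) and GCGTG (second form), and the cyclic AMP response core TGACG, were searched on both strands in the 250 bases before each gene's start (RefSeq, build GRCr8). All 6 members matched an entry. A HIF core was found in the windows of Npy, at 61 bases before the start, and of Pyy, at 180 bases before it. It was not found in those of Npy1r, Npy2r, Npy4r and Npy5r. The study did identify putative elements of this kind at control regions of Npy1r, and it reported increased HIF3A binding near a predicted one after ethanol. Those regions were not compared with this window, so the missing match here says nothing about them. Of all 27457 windows of this length, 37.9% hold the HIF core in either form. TGACG was found in the window of Npy1r alone among the 6, at 138 bases before the start, and 19.0% of all windows hold it. The Npy1r start in this table is inside the annotated gene, so the sequence before its other starts was not searched, and these matches are descriptions of letters, not of bound sites. Capitals mark the matched letters, read 5′ to 3′ on the gene's strand (the Pyy match lies on the other strand and reads CACGT here, and likewise that of Npy1r reads CGTCA).
Npy (chr4:80211861-80212110, + strand): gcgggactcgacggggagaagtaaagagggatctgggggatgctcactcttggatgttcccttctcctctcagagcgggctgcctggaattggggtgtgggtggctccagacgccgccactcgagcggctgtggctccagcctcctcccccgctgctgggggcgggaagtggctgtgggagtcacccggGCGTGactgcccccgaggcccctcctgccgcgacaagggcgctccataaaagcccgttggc
Pyy (chr10:87562471-87562720, - strand): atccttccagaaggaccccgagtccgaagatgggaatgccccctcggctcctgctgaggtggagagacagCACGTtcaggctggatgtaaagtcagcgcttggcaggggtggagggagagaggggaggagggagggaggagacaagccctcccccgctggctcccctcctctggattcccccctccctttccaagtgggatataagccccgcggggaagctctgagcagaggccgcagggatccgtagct
Npy1r, 200 to 91 bases before the start (chr16:27813478-27813587, - strand): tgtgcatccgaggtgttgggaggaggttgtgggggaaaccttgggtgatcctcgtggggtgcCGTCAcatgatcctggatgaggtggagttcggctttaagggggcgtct

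Of the 6 members, 5 passed the filter on low counts and were tested, and none passed the threshold for a difference between the groups. With edgeR's quasi-likelihood test, 0 of the 5 had an adjusted p below 0.2, against 0.0% of all 18141 genes tested (smallest adjusted p 0.818). At an unadjusted p below 0.05 there were 0 members, against 752 genes or 4.15% of all tested. DESeq2, edgeR's likelihood ratio test and limma-voom also called 0 members, against 74, 77 and 0 of all 18141 genes tested. The study, with its own processing of these libraries, reported differential genes at its threshold of 0.2, Hif3a among them. The cause of the difference from the quasi-likelihood fit was not tested. Groups that did not overlap were seen for 1 member, Npy4r (lower after ethanol), and for 8.85% of all genes tested (3.66% higher and 5.19% lower). Exons of the 6 members share no bases with another gene on either strand.

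Npy1r, the main postsynaptic receptor, was the most abundant member per exon length. It lies on chromosome 16 from 24779480 to 24789131 on the - strand (NCBI gene 29358, 4 exonic blocks). Its level was 26.1, 32.7 and 27.7 CPM in controls 1 to 3 and 33.4, 35.2 and 24.1 CPM in ethanol replicates 1 to 3. The ethanol group thus held both the 2 highest libraries and the lowest one, and the groups overlapped. Control libraries averaged 28.8 ± 3.46 CPM and ethanol libraries 30.9 ± 5.99 CPM (SD, n = 3 each). The log2 fold change was 0.10 (SE 0.15, 95% interval -0.25 to 0.45, edgeR adjusted p = 1.0, exact permutation p = 0.8). On a linear scale this interval runs from 0.841-fold to 1.36-fold. Ethanol replicate 3 decided the size of the difference. Without it, the log2 fold change of Npy1r was 0.25 (SE 0.10, unadjusted p = 0.0449, edgeR adjusted p = 0.55), and without ethanol replicate 2 it was -0.005. Without ethanol replicate 3, 1629 of 18356 genes had an unadjusted p below 0.05 in edgeR's quasi-likelihood test. With all 6 libraries this held for 752 of 18141 genes. Hif3a is the factor that the study linked to Npy1r. Hif3a was at 0.81, 1.44 and 0.852 CPM in the controls and at 2.49, 2.13 and 3.55 CPM after ethanol. Ethanol replicate 3 had the highest Hif3a level and the lowest Npy1r level, which describes 1 library, and whether the levels are related was not tested. In its own analysis of the RNA-seq data, the study described Npy1r as trending upward after ethanol, without passing its threshold of 0.2. The study's link rests mainly on other measures, HIF3A binding at the Npy1r promoter and Npy1r mRNA by qPCR, both reported as increased after ethanol.

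Npy5r, a receptor known for its role in feeding, starts 7553 bases from Npy1r on the opposite strand, and the 2 genes are transcribed away from each other. It lies on chromosome 16 from 24796685 to 24805730 (NCBI gene 25340, 5 exonic blocks). Control libraries were at 6.28, 7.07 and 6.97 CPM and ethanol libraries at 7.54, 8.27 and 6.72 CPM. Both of the highest values were from the ethanol group, while ethanol replicate 3 fell within the control range. The log2 fold change was 0.15 (SE 0.11, 95% interval -0.11 to 0.41, edgeR adjusted p = 1.0, exact permutation p = 0.3). This was the narrowest interval of the 5 tested members, from 0.927-fold to 1.33-fold. Omission of any 1 library left the log2 fold change of Npy5r between 0.07 and 0.22.

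Npy2r, best known as the presynaptic receptor that limits neuropeptide Y release, differed least between the groups and most among libraries of the well-counted receptors. It lies on chromosome 2 from 181528949 to 181538145 on the - strand (NCBI gene 66024, 2 exonic blocks). Its control levels were 18.9, 30.0 and 21.1 CPM, and its ethanol levels were 24.6, 28.9 and 16.4 CPM. Replicate 2 was the highest in both groups, and the ranges overlapped almost fully. Averages were 23.4 ± 5.89 CPM without and 23.3 ± 6.36 CPM with ethanol (SD, n = 3 each). The log2 fold change was -0.01 (SE 0.23, 95% interval -0.55 to 0.53, edgeR adjusted p = 1.0, exact permutation p = 1.0). A single library decided the sign: the log2 fold change was 0.22 without control replicate 2, 0.19 without ethanol replicate 3 and -0.19 without ethanol replicate 2.

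**Figure D2:**
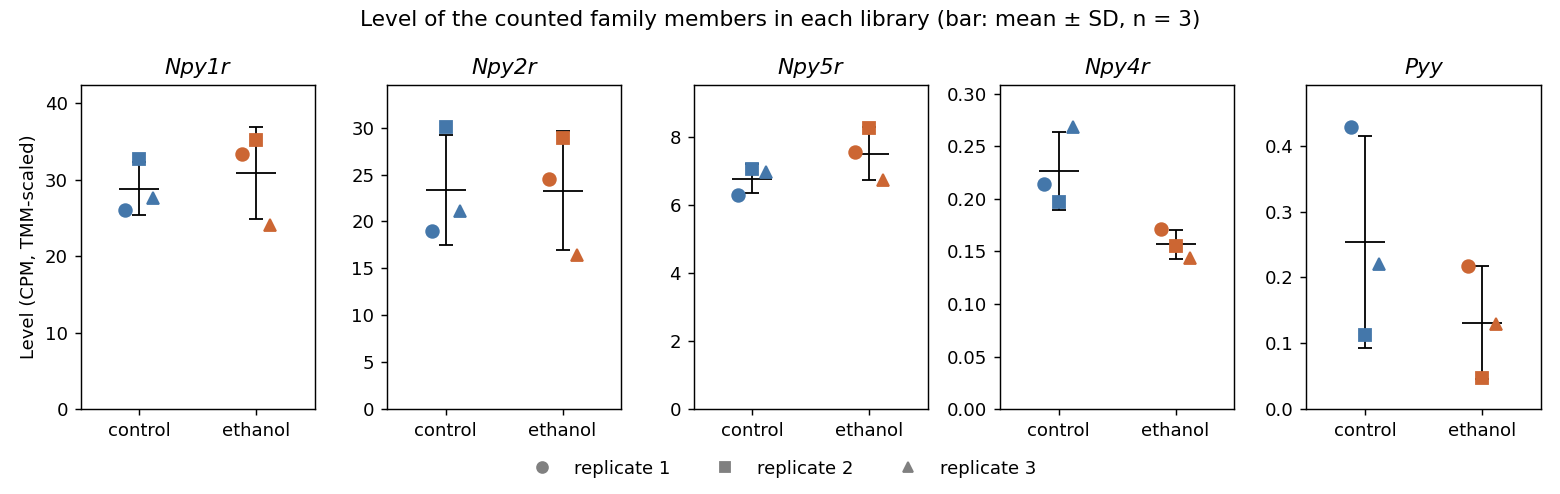
Level in CPM (TMM-scaled) of the 5 members with counts, in each control and ethanol library, with the symbol's shape giving the replicate and the mean ± SD (n = 3) as black bars. Npy1r ran from 24.1 to 35.2 CPM, and ethanol replicate 3 was its lowest library. The groups overlapped for every gene shown except Npy4r, which had 10 to 17 reads per library.

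Npy4r and Pyy were near the lower limit of counting. Npy4r, which prefers pancreatic polypeptide as its ligand, is annotated as a single block on chromosome 16 from 10489450 to 10490706 (NCBI gene 29471). It had 14, 14 and 17 counts in the controls and 11, 10 and 10 after ethanol. Each ethanol library was below each control library, by CPM at most 0.171 against at least 0.197. The log2 fold change was -0.52 (SE 0.28, 95% interval -1.17 to 0.12, edgeR adjusted p = 1.0), and the exact permutation p of 0.1 is the smallest that 3 libraries against 3 allow. Lower and not overlapping groups were found for 5.19% of all genes tested. Only 4 libraries, among them all 3 controls, reached the level that the filter asks for, so the control counts helped this gene to be tested at all.

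Pyy (NCBI gene 287730, chromosome 10 from 90047989 to 90049155) had 28, 8 and 14 counts in controls and 14, 3 and 9 after ethanol. Only 3 libraries reached the level that the filter asks for, control replicates 1 and 3 and ethanol replicate 1. Replicate 2 was the lowest library of both groups, and the groups overlapped. Its log2 fold change was -0.93 (SE 0.61, 95% interval -2.36 to 0.49, edgeR adjusted p = 1.0, exact permutation p = 0.4). Without control replicate 1 it was -0.33, and without ethanol replicate 1 it was -1.48. Ppy, the pancreatic polypeptide gene 4672 bases from Pyy, had 0 counts in all libraries. It was not detected at this depth, at which 3 counts equal 0.0424 to 0.0479 CPM.

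**Figure D3:**
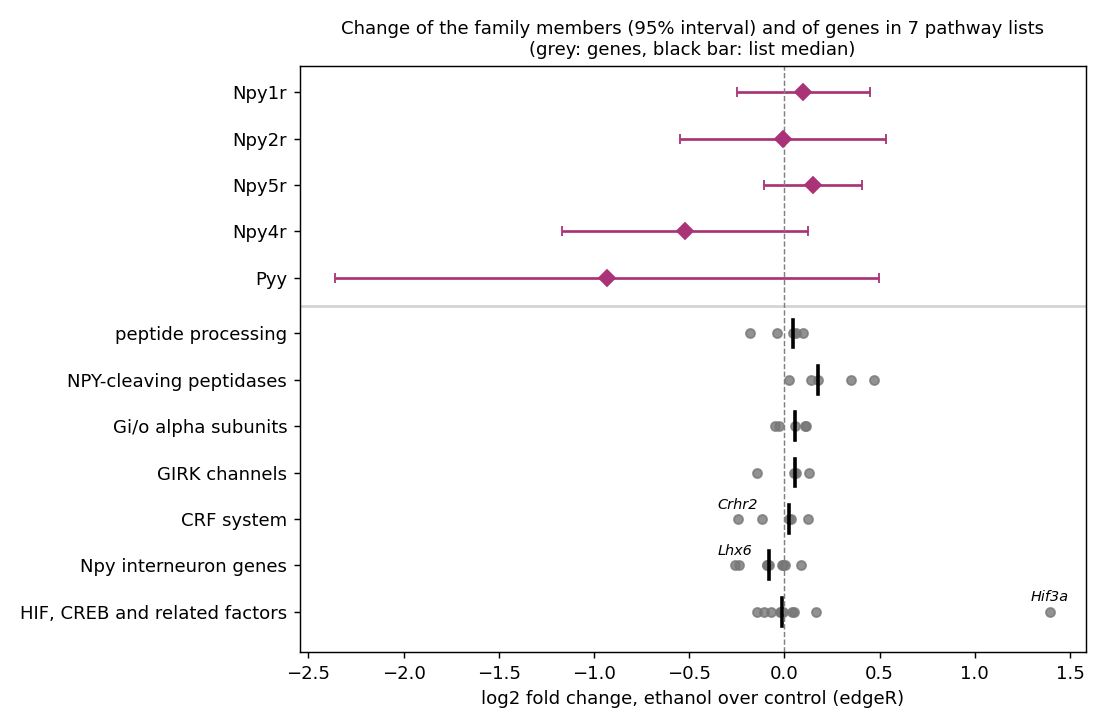
log2 fold change (ethanol over control, edgeR) of the 5 tested members with 95% intervals, above the genes of 7 pathway lists (grey points) with each list's median (black bar). All 5 member intervals include 0, and Hif3a, at 1.39, lies farthest from 0 among the pathway genes.

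Per exon length, the receptors were ordered as Npy1r, Npy2r, Npy5r and Npy4r, at 9.45 ± 1.43, 6.95 ± 1.63, 1.73 ± 0.167 and 0.152 ± 0.0363 CPM per kb of exon (SD, n = 6 libraries). The ranges of Npy1r and Npy2r over libraries overlapped, although Npy1r was the higher in 6 of 6 libraries by a mean ratio of levels of 1.36. Npy2r and Npy5r did not overlap and were 4.02-fold apart. Pyy, at 0.341 ± 0.236 CPM per kb, was below Npy5r in 6 of 6 libraries, and its range overlapped that of Npy4r. Npy1r exceeded 62.2% of all tested genes in level per length, Npy2r 55.7%, Npy5r 33.7% and Npy4r 8.43%.

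Npy1r held the largest share of the receptor set in each of the 6 libraries. Npy1r made up 48.9% to 53.5% of the summed receptor level per length, Npy2r 34.3% to 42.3%, Npy5r 8.08% to 11.4% and Npy4r 0.565% to 1.26%. Control replicate 2 had the highest Npy2r share and ethanol replicate 3 the lowest. Summed over the 4 receptors, the level per length averaged 17.9 ± 2.91 CPM per kb without and 18.7 ± 3.96 CPM per kb with ethanol (SD, n = 3 each). Ratios within a library do not depend on how libraries are scaled, and 3 of them were tested. The log2 ratio of Npy1r to Npy5r (in CPM) was 2.08 ± 0.11 without and 2.02 ± 0.16 with ethanol (SD, n = 3 each), with an exact permutation p of 0.7. That of Npy1r to Npy2r was 0.33 ± 0.18 and 0.43 ± 0.13 (SD, n = 3 each), and that of Npy2r to Npy5r was 1.75 ± 0.28 and 1.59 ± 0.28 (SD, n = 3 each), both with an exact permutation p of 0.6. All 3 had an adjusted p of 0.7 over the 3 exact permutation tests.

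**Figure D4:**
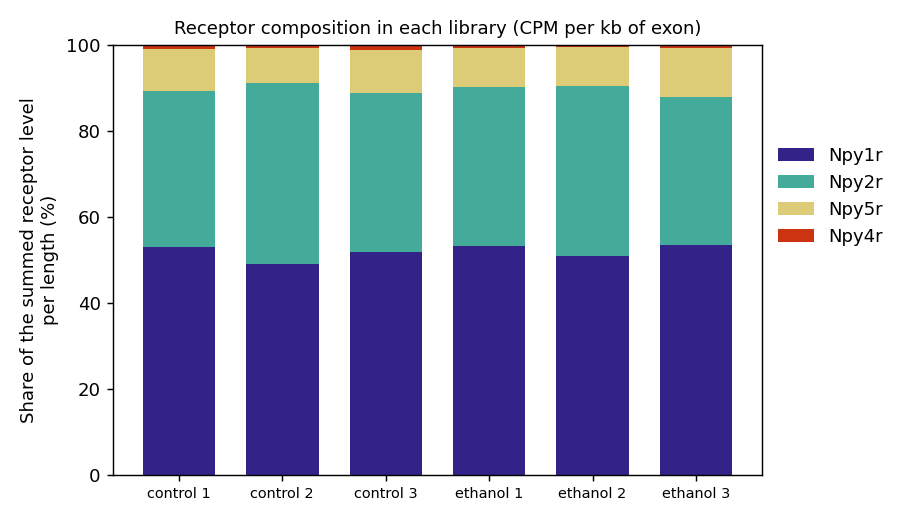
Share (%) of each receptor in the summed receptor level per length (CPM per kb of exon), stacked to 100% for each of the 6 libraries. Npy1r takes 48.9% to 53.5% and Npy2r 34.3% to 42.3% in both groups, while Npy4r is a thin band at or under 1.26%.

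Npy1r and Npy2r varied more between libraries of a group than most genes of like level. The biological coefficient of variation fitted by edgeR was 20.4% for Npy2r and 13.8% for Npy1r, against medians of 8.77% and 8.44% among the 1001 genes of like mean CPM that include it. Npy2r exceeded 97.9% and Npy1r 92.1% of those genes. Npy5r, at 11.7% against a median of 12.2%, did not stand out.

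The libraries in which Npy1r and Npy2r were high were also high in the summed level of markers of cortical-type glutamatergic neurons (Slc17a7, Neurod6 and Tbr1). It was 452, 831 and 602 CPM in controls and 733, 955 and 456 CPM after ethanol. Control replicate 1 and ethanol replicate 3 were lowest for this sum and for both receptors. Slc17a7 made up most of the sum, with 413 of 452 CPM in control replicate 1. Tbr1 did not follow it, at 15.1, 13.7 and 14.9 CPM in controls and 22.8, 21.0 and 20.004 CPM after ethanol, with its lowest level in control replicate 2, where Npy2r was highest. The summed level of hypothalamic neuron markers ran the other way, at 108, 9.97 and 83.5 CPM in controls and 22.8, 13.7 and 315 CPM after ethanol. The order of the 6 libraries by this sum was the reverse of their order by Npy2r in 6 of 6 positions. Of the 6 hypothalamic markers, 3 (Hcrt, Pmch and Avp) were highest in ethanol replicate 3, where Pmch alone reached 206 CPM, and none was at 0. In control replicate 2, where the sum was lowest, 2 of the 6 were at their lowest. Avp, Oxt and Pmch carried the sum, whereas Pomc, at 1.48, 1.58 and 2.32 CPM in controls and 1.12, 1.66 and 2.10 CPM after ethanol, did not follow its order. Agrp, which marks the Npy neurons of the arcuate nucleus, was low in all libraries, at 0.347 to 0.561 CPM. Over the 6 libraries, log2 CPM of Npy2r had a Pearson r of 0.96 with the cortical-type marker sum and -0.99 with the hypothalamic one. For Npy1r the values were 0.96 and -0.96, and for Npy5r 0.88 and -0.69. These values describe 6 libraries, and all genes of a library share its dissection and depth. Of the 5 amygdala markers listed, 4 were matched and counted (Prkcd, Crh, Rspo2 and Etv1), with a summed level of 196, 225 and 203 CPM in controls and 239, 265 and 122 CPM after ethanol. This sum, carried by Etv1, ranked the libraries in the same order as Npy1r in 6 of 6 positions, with a Pearson r of 0.89 for Npy1r and 0.85 for Npy2r. Rspo2, like Npy1r, was highest in ethanol replicate 2 and lowest in ethanol replicate 3. Prkcd and Crh did not follow the sum and were both lowest in ethanol replicate 2. Prkcd was at 22.8, 21.7 and 24.5 CPM in controls and 23.3, 20.7 and 21.4 CPM after ethanol. Crh was at 3.30, 2.59 and 2.66 CPM in controls and 3.16, 2.52 and 3.07 CPM after ethanol. The oligodendrocyte marker sum had a Pearson r of -0.79 with Npy1r and -0.85 with Npy2r. Choroid plexus markers, whose summed level was 503 to 1085 CPM in controls and 10.03 to 464 CPM after ethanol, also differed between the libraries, with 0 of 6 at 0 counts. A negative log2 fold change was found for 6 of 6, as for 8602 of all 18141 genes tested. Ependyma markers, summing to 18.9 to 27.3 CPM in controls and 13.8 to 18.4 CPM after ethanol, were negative in 3 of 3. In both sums each ethanol library was below each control library. Taken singly, this held for 3 of the 6 choroid plexus markers and 2 of the 3 ependyma markers, and for 5.19% of all genes tested. The part of such tissue differences in the receptor levels was not tested by an independent measure. In a fit with the cortical-type marker level as a covariate, chosen after seeing the data, the log2 fold change was 0.01 for Npy1r, -0.15 for Npy2r and 0.11 for Npy5r. With the hypothalamic marker level in its place, the values were 0.09, -0.01 and 0.15. In both fits 0 members had an edgeR adjusted p below 0.2.

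**Figure D5:**
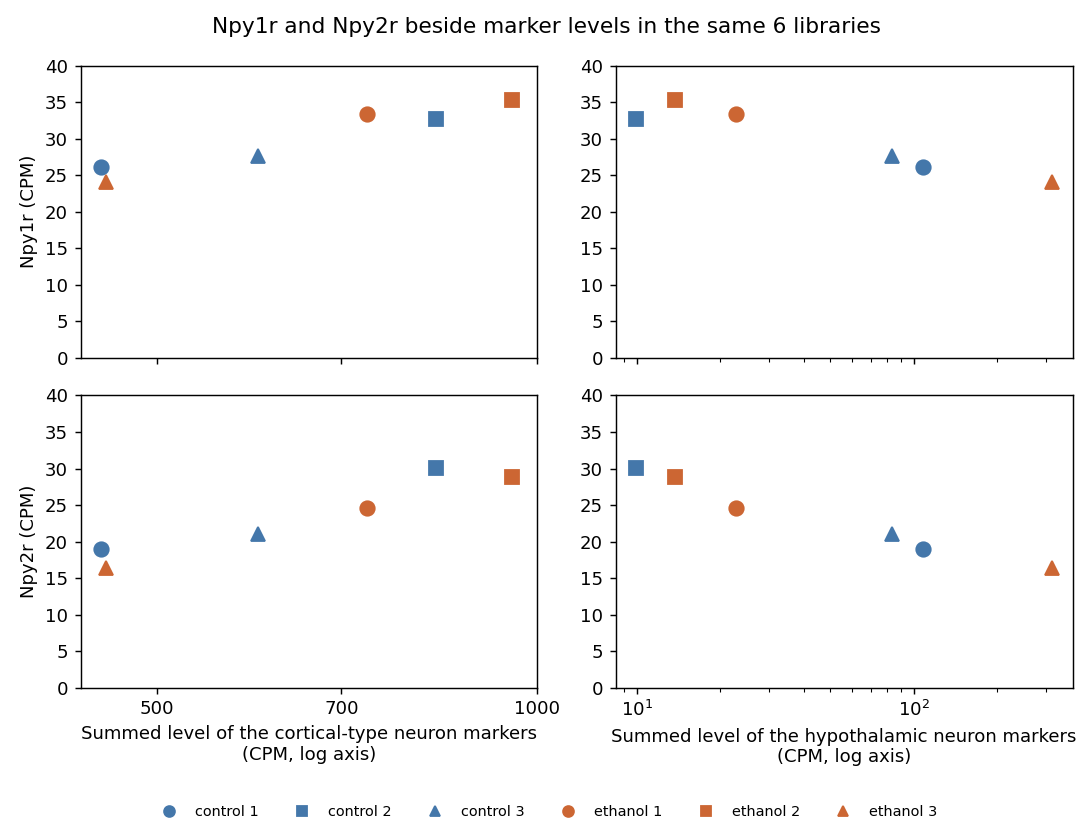
Level of Npy1r and Npy2r (CPM, vertical axes from 0) against the summed level (CPM, log axes) of the cortical-type and hypothalamic neuron markers, with 1 point per library, colored by group. Both receptors are high where the cortical-type sum is high and low where the hypothalamic sum is high, from control replicate 2 at 9.97 CPM to ethanol replicate 3 at 315 CPM.

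The 3 genes whose log2 CPM ran closest to that of Npy1r over the 6 libraries were Lrrc7 (Pearson r = 0.998), NCBI gene 100910792 without a symbol (r = 0.998) and Atp2a2 (r = 0.997). Npy2r ranked 442 by this measure (r = 0.949) and Npy5r, its neighbor on the chromosome, ranked 1711 (r = 0.841). With 6 libraries and 18141 genes, high values are common, and they are given as descriptions.

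Genes that make, cleave and transduce the peptide signal were followed in lists, and none had an edgeR adjusted p below 0.2. The median log2 fold change of all 18141 genes was 0.01, and 1.57% of them were higher and 2.57% lower at an unadjusted p below 0.05. Among peptide processing genes, 5 of 6 were tested, 0 passed an unadjusted p of 0.05 in either direction, and the median log2 fold change was 0.04. Cpe, the carboxypeptidase that trims propeptides, was the most abundant, at 2353 ± 227 CPM without and 2289 ± 72.7 CPM with ethanol (SD, n = 3 each). Pcsk1, a prohormone convertase, had the smallest p of the list, with 3.06 ± 0.459 and 2.71 ± 0.517 CPM (SD, n = 3 each). Of the 5 peptidases that can cleave neuropeptide Y, 0 passed an unadjusted p of 0.05, and 5 of 5 had a positive log2 fold change (median 0.18), as did 52.6% of all genes tested. Among them, Xpnpep1 was at 78.7 ± 5.67 and 79.9 ± 6.31 CPM and Xpnpep2 at 0.688 ± 0.181 and 0.875 ± 0.108 CPM (SD, n = 3 each).

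On the receptor side, 0 of 5 Gi/o alpha subunit genes and 0 of 4 GIRK channel genes passed an unadjusted p of 0.05 in edgeR's quasi-likelihood test, with medians of 0.06 and 0.06 on the log2 scale. Gnao1, the main Go subunit of brain, was at 507, 513 and 486 CPM in controls and at 530, 567 and 524 CPM after ethanol. Its groups did not overlap, as was so in this direction for 3.66% of all genes tested, and its log2 fold change of 0.11 (SE 0.07) had an unadjusted edgeR p of 0.178. Kcnj6 and Kcnj3, both GIRK subunits, had log2 fold changes of 0.05 and 0.13, with SEs of 0.13 and 0.16.

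Of the corticotropin-releasing factor genes, 5 of 6 were tested, with 0 higher and 1 lower at an unadjusted p below 0.05 and a median log2 fold change of 0.02. The lower one was Crhr2, at 20.3, 21.5 and 17.5 CPM in controls and 18.5, 16.2 and 15.3 CPM after ethanol (log2 fold change -0.25, SE 0.11, unadjusted p = 0.0482, edgeR adjusted p = 1.0), and its groups overlapped. Of 9 genes often expressed in Npy interneurons, 0 were higher and 1 was lower, with a median of -0.08. Lhx6, a transcription factor of interneurons born in the medial ganglionic eminence, was at 45.7, 42.2 and 35.5 CPM in controls and 35.5, 32.4 and 35.4 CPM after ethanol (log2 fold change -0.26, SE 0.10, unadjusted p = 0.0310, edgeR adjusted p = 1.0). Its lowest control library and highest ethanol library were nearly level. Gad1, the most abundant gene of that list, was at 407 ± 52.0 and 385 ± 29.5 CPM (SD, n = 3 each). Of 10 HIF, CREB and related transcription factor and cofactor genes, a list that includes Hif3a because the study drew attention to it on these samples, 1 was higher (Hif3a, log2 fold change 1.39, SE 0.28, unadjusted p = 0.00123, edgeR adjusted p = 0.818) and 0 were lower, with a median of -0.01. The most abundant of them, the HIF partner Arnt2, was at 238 ± 9.37 and 247 ± 8.86 CPM (SD, n = 3 each).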

How the data were processed

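RNA-seq was performed on 6 amygdala libraries, 3 control and 3 ethanol, each made from pooled RNA of 2 rats. The authors deposited raw counts per gene. Per the file headers, reads were counted with featureCounts 1.6.3 over exons of the Rnor_6.0 RefSeq annotation with the reverse-stranded setting (2), and no option was set to count reads that align to several places. The submitters' processing notes name FastQC 0.11.8 and STAR 2.7.0f. Of 38445 gene identifiers, 29322 were matched to a symbol through the RefSeq gene table (GRCr8), by identifier only. Gene coordinates are those of the count files (Rnor_6.0).

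The count table was fitted with edgeR 4.0.16 (R 4.3.3). Genes passing filterByExpr (minimum 10 counts, 15 in total) numbered 18141. Libraries were scaled by TMM (factors 0.976 to 1.01). The effect of ethanol was tested with glmQLFTest, the quasi-likelihood test of edgeR, on the whole table with Benjamini-Hochberg adjustment and the study's threshold of 0.2. The SE was the absolute log2 fold change over the root of F. A 2-sided exact permutation test on log2 CPM (prior count 2) goes through 20 label assignments and cannot give a p under 0.1. Alternatives used DESeq2 1.42.0, limma 3.58.1 (voom), edgeR's likelihood ratio test, other scalings, no filter, a replicate block and leaving out each library. Scripts were tested on simulated data. Within-library ratios that involve Npy could not be computed, because Npy had 0 counts, so p-values of ratios were adjusted over 3 instead of 5. Assigned reads per library were 62576504 to 70755739, so 3 counts equal 0.0424 to 0.0479 CPM, and such limits cover counting error only.

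The members and gene lists were chosen with earlier results of these data known. The genes named are the members, models within 50000 bases of Npy or Npy1r, Hif3a, Sst and Agrp, the gene with the smallest p and the highest level of each pathway list (of marker lists only where a result turns on them), and the 3 genes most like Npy1r over the libraries. One item of the cortical-type marker list is not reported here and was left out of its sum.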

Additional observations from a re-analysis of the deposited data

How the results depend on the processing

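No member had an adjusted p below 0.2 (edgeR, DESeq2 or limma-voom) under any of the 15 alternatives run, 2 of which (a marker level as a covariate) were chosen after seeing the data. Over all genes, the count with an adjusted p below 0.2 was 0 in edgeR's quasi-likelihood test, 74 with DESeq2, 77 with edgeR's likelihood ratio test and 19 with the cortical-type marker level as a covariate. With each library left out in turn it ran from 0 to 83, at 83 without ethanol replicate 3 and 4 without ethanol replicate 1. Over the same omissions, the log2 fold change ran from -0.0050 (without ethanol replicate 2) to 0.25 (without ethanol replicate 3) for Npy1r, from -0.19 (without ethanol replicate 2) to 0.22 (without control replicate 2) for Npy2r, from 0.07 to 0.22 for Npy5r, from -0.61 to -0.39 for Npy4r and from -1.48 to -0.33 for Pyy. Npy2r also changed sign without ethanol replicate 3 (0.19). The ethanol minus control difference in log2 ratio ran from -0.12 to 0.035 for Npy1r to Npy5r, from 0.0016 to 0.17 for Npy1r to Npy2r and from -0.26 to 0.0037 for Npy2r to Npy5r, and the cause of these changes was not tested. Scaling, filter and test changed no sign of a member, with log2 fold changes of 0.07 to 0.10 for Npy1r.

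The replicate numbers are shared between groups but mark different rats. Deviations of same-numbered libraries correlated by 0.0264, 0.388 and 0.211 over 14241 genes. Control replicates 2 and 3 correlated best with the ethanol library of the same number, and control replicate 1 with ethanol replicate 3 (0.305). The numbers were not taken as pairs, and whether libraries of the same number share a batch was not tested. With the replicate block, 0 members had an adjusted p below 0.2, and the log2 fold changes were 0.09 for Npy1r, -0.02 for Npy2r, 0.15 for Npy5r, -0.52 for Npy4r and -0.95 for Pyy. The last had an unadjusted p of 0.0272 from edgeR's quasi-likelihood test in that fit. There 1015 of 18141 genes had an unadjusted p below 0.05.

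Each group had 3 libraries. With the hypothalamic marker level as a covariate in the same 6 libraries, the SE of the log2 fold change was 0.05 instead of 0.15 for Npy1r and 0.06 instead of 0.23 for Npy2r. That covariate was chosen after its Pearson r of -0.96 with Npy1r and -0.99 with Npy2r was seen in these libraries. The smaller SE follows from that choice, and the cause of the spread was not tested. Npy4r and Pyy had 3 to 28 counts per library.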

Other observations

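The layout shared by Npy and its neighboring model was looked for across the annotation, after the value of Npy was seen. Among 24541 gene models with at least 3 exonic blocks, 59 pairs lie on the same strand with starts within 50000 bases of each other and have equal block lengths except in the first exon. In 24 pairs both models were at 0 counts in all libraries, in 8 pairs 1 model was, and in 27 pairs neither was, many of them gamma protocadherin genes. Of all such models, 15.4% were at 0 counts. Pairs share models and are not independent. The search compared block lengths only, so models that use the same later exons were not set apart from separate copies. Whether the genes at 0 are expressed in amygdala at all was not asked. These counts therefore cannot show whether a shared layout goes with 0 counts. Of the other members, none with at least 3 exonic blocks had a model of equal block lengths anywhere in the annotation.

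Pcsk1n, which encodes an abundant neuronal inhibitor of a prohormone convertase, had 1 count in all 6 libraries together, and no other model shared its block lengths.

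The gene whose log2 CPM ran closest to that of Npy2r was Grik2, a kainate receptor subunit gene (Pearson r = 0.997 over 6 libraries), and Cnr1, the cannabinoid receptor gene, was close behind (r = 0.997). Cnr1 was at 219, 325 and 236 CPM in controls and at 263, 319 and 189 CPM after ethanol. For Npy5r it was Ccn1, at 1.24, 1.80 and 1.78 CPM in controls and 2.48, 3.19 and 1.52 CPM after ethanol (r = 0.996). These genes were outside the rule for named genes and were chosen after their values were seen.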
